A study of Mus musculus with 4 samples.

Results

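The zinc finger protein genes described here are the protein-coding mouse genes with a symbol of the form Zfp followed only by digits. Of 365 such genes in the annotation of the count table, 269 were chosen by their summed counts of at least 100 over the 4 libraries, out of 54146 genes listed. Another 95 lay below 100 counts, 20 of them at 0 in every library, and Zfp36, an RNA-binding protein with a different kind of zinc finger, was left out. The summed count chose the members, and the group labels did not enter it. It was not scaled for depth, so the deepest library, propranolol replicate 1, weighed most in the choice. Zfp97 and Zfp462 lay just inside the limit, each with 101 counts, and Zfp867 and Zfp418 lay just outside it with 99 and 98 counts. All 269 genes passed the filter on low counts and were among the 14688 genes tested.

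RNA was sequenced from tumor-associated macrophages (TAMs) of MCA205 tumors, a fibrosarcoma grown under the skin of the flank of female C57BL/6 mice aged 8 to 16 weeks. The 2 vehicle libraries came from control mice and the 2 propranolol libraries from mice that drank propranolol, a nonselective blocker of beta-adrenergic receptors, at 0.5 g/L from the day of tumor inoculation. Cells were enriched with CD45 beads and sorted as live CD11b+ F4/80+ cells, and the sources used here do not say how many mice each library held. The deposited counts added up to 13798249 and 23018142 in vehicle replicates 1 and 2 and to 39818103 and 16424081 in those of propranolol. The study calls the libraries biological replicates, and p-values measure the spread between these samples, with 2 per group.

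Most Zfp genes encode proteins with tandem C2H2 zinc fingers, small loops in which a pair of cysteines and a pair of histidines hold a zinc ion and a short helix reads a few bases of DNA. Many of these proteins also carry a KRAB domain, which recruits TRIM28 and, through it, the histone methyltransferase SETDB1 and HP1 proteins, and thereby silences the bound site, often a transposable element. KRAB zinc finger genes arose by repeated local duplication and lie in clusters on a few chromosomes. In the coding sequences of GENCODE M21, 143 of the 269 genes held a match to the KRAB A box and 126 did not. The median number of C2H2 matches per gene was 10, the highest was 33, and 9 genes had no match of this form. All finger numbers given here count these matches, so fingers with another spacing are missed.

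The coding sequence of a single finger shows how far these genes differ in base composition. The stretches below come from the 3 lowest and the 3 highest of the called genes with at least 6 fingers, and each has the median GC content among the fingers of its gene that share a fixed spacing of the zinc-binding residues (10 in Zfp942, 12 in Zfp9, 12 in Zfp758, 16 in Zfp628, 5 in Zfp335 and 8 in Zfp710). Each stretch has 84 bases (28 codons) on the GRCm38 build and lies inside a coding exon. Capitals mark the 4 codons of the zinc-binding cysteines and histidines.
Zfp942: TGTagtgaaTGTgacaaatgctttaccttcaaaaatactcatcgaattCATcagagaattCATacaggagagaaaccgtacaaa
Zfp9: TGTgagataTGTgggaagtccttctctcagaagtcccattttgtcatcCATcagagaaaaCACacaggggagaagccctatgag
Zfp758: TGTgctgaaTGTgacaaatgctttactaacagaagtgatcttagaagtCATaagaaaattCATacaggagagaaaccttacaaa
Zfp628: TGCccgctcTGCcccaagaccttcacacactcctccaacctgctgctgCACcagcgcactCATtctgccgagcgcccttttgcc
Zfp335: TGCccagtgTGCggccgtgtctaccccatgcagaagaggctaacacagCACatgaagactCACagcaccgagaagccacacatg
Zfp710: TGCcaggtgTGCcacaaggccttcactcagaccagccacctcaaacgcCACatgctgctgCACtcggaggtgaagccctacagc

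The stretch of Zfp942 lies at chr17:21928675-21928758 on the minus strand, that of Zfp9 at chr6:118464425-118464508 on the minus strand and that of Zfp758 at chr17:22375753-22375836 on the plus strand. The stretch of Zfp628 lies at chr7:4920542-4920625 on the plus strand, that of Zfp335 at chr2:164900287-164900370 on the minus strand and that of Zfp710 at chr7:80082139-80082222 on the plus strand. Their GC content was 34.5% in Zfp942, 46.4% in Zfp9 and 33.3% in Zfp758, against 63.1% in Zfp628, 57.1% in Zfp335 and 60.7% in Zfp710. At the last position of each codon, where a base can often change without changing the amino acid, it was 28.6%, 60.7% and 21.4% in the former genes and 78.6%, 78.6% and 92.9% in the latter. The cysteine codons read TGT in the stretches of the 3 lower genes and TGC in those of the 3 higher genes, while the histidine codons were mixed in Zfp9 and Zfp628.

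The Zfp genes were expressed at low levels. Their mean level over the 4 libraries was 7.37 CPM, counts scaled to the size of the library, at the median and ran from 1.11 to 265 CPM, and 66 genes were above 20 CPM. Per exon length, the median was 5.31 TPM, a level scaled to exon length and library size, against 13.005 TPM over all tested genes. Together the 269 genes took 0.503% and 0.521% of the counts of the vehicle libraries and 0.418% and 0.449% of those of the propranolol libraries. As sums of CPM scaled by TMM, which sets libraries to a common level, they reached 4677 and 4782 in vehicle against 4581 and 4831 in propranolol. The groups overlapped in this sum. The sum of the 143 KRAB genes, at 1113 and 1144 CPM in vehicle and 832 and 781 CPM in propranolol, did not overlap between groups, and neither did that of the other 126 genes, at 3563 and 3638 CPM in vehicle and 3749 and 4050 CPM in propranolol.

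The main comparison asked how the transcripts of TAMs differ between propranolol-treated and control mice. A gene was called lower or higher when its adjusted p was under 0.05 in the edgeR quasi-likelihood test and its level differed by more than 1.5-fold. Of the 269 Zfp genes, 75 were lower after propranolol (27.9%) and 16 were higher (5.95%). Over all tested genes, 15.6% were lower and 12.2% were higher. The median log2 fold change was -0.32 for the Zfp genes and -0.02 for all tested genes. Without propranolol replicate 2, 48 genes were lower, 10 were higher and the median was -0.22, and without vehicle replicate 2, 63 were lower and 25 were higher. Of the 269 genes, 161 had at least 500 counts, and these had 39 lower calls, 16 higher calls and a median of 0.02. With another scaling, by the upper quartile, 76 were lower and 8 higher. With a trend with GC content removed, as described further on, 5 were lower and 14 higher, and the median was 0.03.

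Both propranolol libraries lay below both vehicle libraries in 144 Zfp genes and above them in 68, where 36.9% and 35.8% of all tested genes did so. The libraries did not overlap between groups in any of the 75 lower or the 16 higher genes. With each library left out in turn, 42 of the 75 and 6 of the 16 were called in every case. Such a fit leaves 1 library in a group, which is assumed to vary like the other group, so it shows how far a call rests on 1 library and adds no evidence for it. The lower genes spanned -2.21 to -0.59 in log2 fold change at a median level of 5.98 CPM, and the higher genes 0.59 to 0.99 at a median level of 25.9 CPM. Genes of the lowest tercile of the Zfp genes by level were lower in 26 of 90 cases and higher in 0, with a median log2 fold change of -0.65. In the highest tercile, 16 of 90 were lower and 12 higher, with a median of 0.12.

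The 10 called Zfp genes with the lowest fold changes had vehicle levels between 1.75 and 9.91 CPM. Zfp942 (ENSMUSG00000071267, chr17:21926960-21962464), a KRAB gene with 11 fingers, had 9.91 and 8.61 CPM in vehicle and 2.20 and 1.70 CPM in propranolol. Its log2 fold change was -2.21 ± 0.28 (SE), with an adjusted p of 0.000321 in the edgeR test. The group means were 9.26 ± 0.921 and 1.95 ± 0.352 CPM (SD, n = 2). Zfp758 (chr17:22361453-22377281), another KRAB gene of the same cluster, had 6.204 and 6.02 CPM in vehicle and 1.71 and 1.31 CPM in propranolol. Its log2 fold change was -1.99 ± 0.32 (adjusted p 0.00107 in edgeR). After the removal of the GC trend described further on, it was -0.54 and not called.

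Zfp9 (chr6:118461950-118479320), a KRAB gene that lies outside the clusters, had 3.51 and 1.79 CPM in vehicle and 0.468 and 0.720 CPM in propranolol. Its log2 fold change of -2.18 ± 0.55 rested on 52, 45, 17 and 11 counts, and its call was lost without vehicle replicate 1. Zfp712, at 2.63 and 1.75 CPM in vehicle and 0.605 and 0.524 CPM in propranolol, also lost its call without that library. Zfp953 had 5.46 and 5.14 CPM in vehicle and 1.46 and 1.77 CPM in propranolol, with well separated groups. Its log2 fold change of -1.73 became -0.48, and was not called, after the removal of the GC trend described further on. Both Zfp712 and Zfp953 are KRAB genes of the chromosome 13 cluster.

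Zfp992, Zfp983 and Zfp617, all with KRAB, had their lowest levels in propranolol replicate 2, where they had 11, 5 and 10 counts. Leaving out that library ended the calls of Zfp983 and Zfp617, and leaving out vehicle replicate 2 also ended that of Zfp983. Of their transcripts, 43.7% of the 50-base stretches of Zfp992 and 44.0% of those of Zfp617 also occur in another gene, so that reads could be lost or assigned to the other copy. After the removal of the GC trend described further on, Zfp992 was not called, at -0.48. Zfp182, a KRAB gene on the X chromosome, had 9.31 and 8.89 CPM in vehicle and 2.26 and 3.80 CPM in propranolol. Its log2 fold change was -1.63 ± 0.30 (adjusted p 0.00199 in edgeR).

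Zfp683 (chr4:134053838-134058996) was the exception among the 10 in structure and base composition, with 3 fingers, no KRAB match and a GC content of 57.9%. It encodes HOBIT, a factor of tissue-resident lymphocytes. It had 4.86 and 7.77 CPM in vehicle and 1.95 and 2.10 CPM in propranolol, and its log2 fold change was -1.66 ± 0.34 (adjusted p 0.00336 in edgeR). Beside it, 12 T cell markers summed to 294 and 334 CPM in vehicle and 151 and 84.9 CPM in propranolol. Of these, 10 of 12 were lower, beside 15.6% of all tested genes, and Cd8a was the most abundant. Cd4 was not called, at 13.2 and 13.4 CPM in vehicle and 16.3 and 17.0 CPM in propranolol. In bulk samples, fewer cells of a type and less RNA per cell cannot be told apart, and the part of T cells in the level of Zfp683 was not tested.

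**Figure D1:**
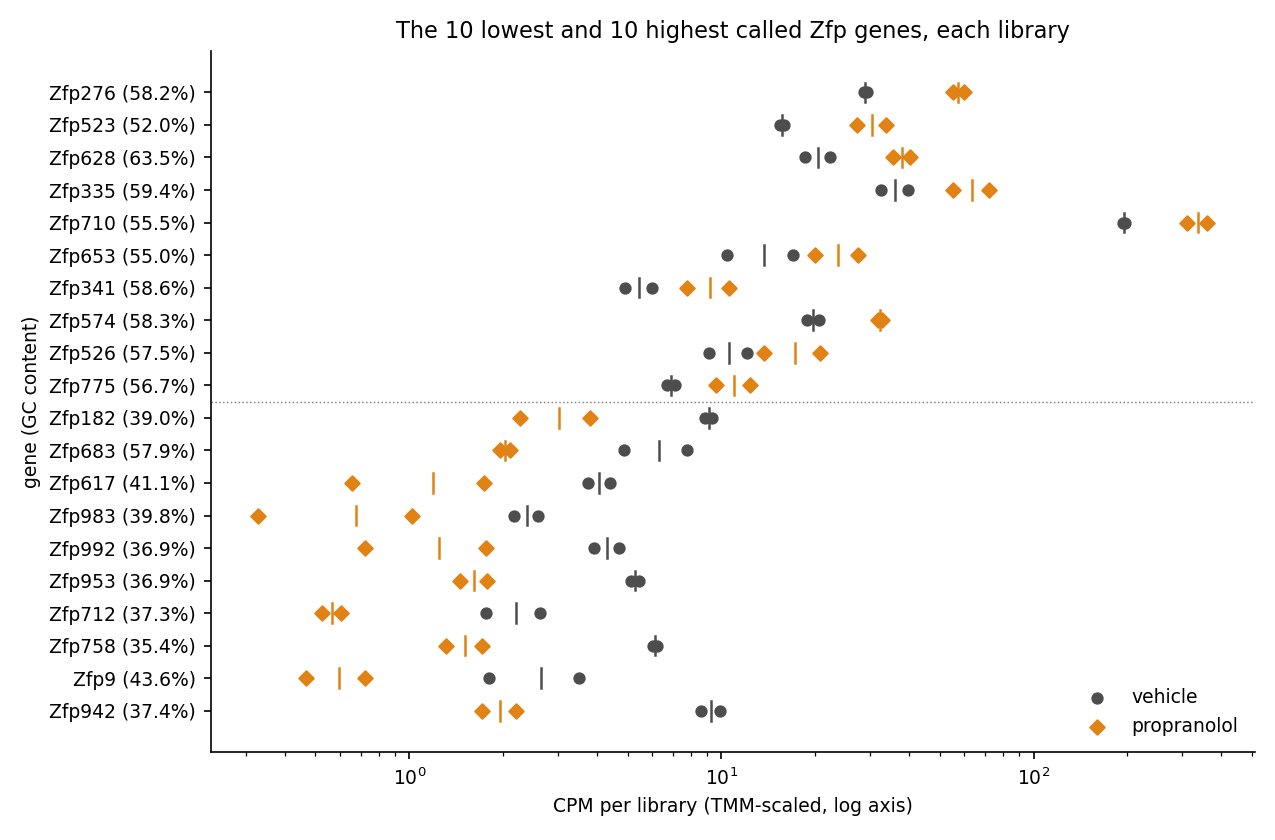
CPM of each library (log axis, TMM-scaled) for the 10 called Zfp genes with the lowest and the 10 with the highest log2 fold changes, with the GC content of each gene in parentheses. Circles are the 2 vehicle libraries, diamonds the 2 propranolol libraries and vertical bars their means. The groups do not overlap in any of the 20 genes, and Zfp683 is the only gene above 50% GC among the lower 10.

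The 10 called Zfp genes with the highest fold changes had no KRAB match, and their GC content lay between 52.0% and 63.5%. Zfp276 (chr8:123254195-123269745) had 28.5 and 29.3 CPM in vehicle and 55.1 and 59.7 CPM in propranolol, a log2 fold change of 0.99 ± 0.12 (adjusted p 0.000239 in edgeR). Zfp523 (chr17:28177129-28205886), the mouse counterpart of human ZNF76 and a relative of the activator ZFP143, had 15.4 and 15.9 CPM in vehicle and 27.1 and 33.7 CPM in propranolol (0.95 ± 0.15, adjusted p 0.00104 in edgeR). Zfp628 (chr7:4915217-4922002), with 16 fingers, had 22.3 and 18.5 CPM in vehicle and 35.5 and 40.1 CPM in propranolol (0.89 ± 0.14, adjusted p 0.000997 in edgeR). Their groups were separated by more than the distance between replicates.

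Zfp335 (chr2:164891882-164911757), a factor needed for T cell maturation, had 32.5 and 39.7 CPM in vehicle and 55.2 and 71.9 CPM in propranolol. Zfp335 shares 28.3% of its exon bases with Pcif1 and an antisense gene. No strand option is stated for the counting, so it is not known whether reads of these genes were kept apart. Zfp710 (chr7:80024814-80094173) was the most abundant of all the Zfp genes per length, at 115 TPM, and had 193 and 196 CPM in vehicle and 310 and 360.4 CPM in propranolol (0.79 ± 0.10, adjusted p 0.000385 in edgeR). Zfp574, with 18.8 and 20.6 CPM in vehicle and 31.7 and 32.7 CPM in propranolol, was also called with every library left out. Zfp653, Zfp341 and Zfp526 lost their calls without vehicle replicate 1 and also without propranolol replicate 2, and Zfp775 without propranolol replicate 2. Upper-quartile factors also ended the calls of Zfp341, Zfp526 and Zfp775, and DESeq2 those of Zfp341 and Zfp775. None of the genes in this paragraph was called after the removal of the GC trend described further on. Their log2 fold changes were then 0.47 for Zfp335, 0.48 for Zfp710, 0.37 for Zfp574 and 0.47 for Zfp653. They were 0.39 for Zfp341, 0.34 for Zfp526 and 0.33 for Zfp775.

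The other 7 of the 8 most abundant Zfp genes per length followed no common direction. Zfp513 rose, from 43.8 ± 4.96 to 66.6 ± 1.62 CPM (SD, n = 2), a call lost without vehicle replicate 1, with upper-quartile factors and when genes had to reach 1 CPM in both libraries of either group. Zfp513 was also not called after the removal of the GC trend described further on, at 0.30. Zfp703, Zfp740, Zfp706, Zfp395 and Zfp106 had log2 fold changes between -0.07 and 0.16, and their groups overlapped. Zfp598, the ubiquitin ligase that marks collided ribosomes, went from 67.9 ± 2.51 to 101 ± 8.39 CPM, a log2 fold change of 0.57 ± 0.11 (adjusted p 0.00236 in edgeR) that stayed short of 1.5-fold. It passed 1.5-fold and was called without vehicle replicate 1 (0.59), vehicle replicate 2 (0.62) or propranolol replicate 1 (0.66). The same held with DESeq2 (0.59) and with no filter on low counts (0.64). After the removal of the GC trend described further on, the log2 fold change of Zfp598 was 0.23.

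Among the Zfp genes with known roles in protein modification, Zfp91 and Zfp451 were lower. Zfp91 (chr19:12763660-12796126), a ubiquitin ligase of the non-canonical NF-kappa-B pathway, had 158 and 134 CPM in vehicle and 71.8 and 60.1 CPM in propranolol. Its log2 fold change was -1.14 ± 0.13 (adjusted p 0.000184 in edgeR), and the call held with each library left out. Zfp451, a SUMO ligase, had 38.2 and 43.3 CPM in vehicle and 25.7 and 23.97 CPM in propranolol (-0.71 ± 0.13, adjusted p 0.0018 in edgeR), a fall that became a log2 fold change of 0.03 once a trend with GC content was removed, as described further on.

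Among the KRAB proteins with known targets, Zfp445, which acts beside ZFP57 to keep DNA methylation at imprinted regions, was lower, with 63.6 and 67.1 CPM in vehicle and 40.7 and 40.9 CPM in propranolol (-0.68 ± 0.11, adjusted p 0.001 in edgeR), and its log2 fold change was -0.16 and not called after the removal of the GC trend. Zfp809, which recognises the primer binding site of murine leukemia viruses, had 13.96 and 16.1 CPM in vehicle and 11.2 and 12.7 CPM in propranolol and was not called (adjusted p 0.147 in edgeR). Zfp568, which silences a placental promoter of Igf2, had 14.3 and 13.5 CPM in vehicle and 17.3 and 19.6 CPM in propranolol and was not called either (adjusted p 0.0656 in edgeR).

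Of the transcription factors, Zfp281, which binds GC-rich promoters in stem cells, went from 33.1 ± 0.765 to 20.04 ± 1.57 CPM, and Zfp318, needed for IgD expression in B cells, from 27.0 ± 0.190 to 17.5 ± 1.96 CPM (SD, n = 2). Both were called lower, and the call of Zfp318 was lost without vehicle replicate 1, without propranolol replicate 1 and with no filter on low counts (-0.56). Both calls were lost after the removal of the GC trend described further on, at -0.18 for Zfp281 and -0.25 for Zfp318. Zfp827, which recruits the NuRD complex to telomeres, was called lower at 5.58 ± 1.02 against 2.23 ± 1.12 CPM, and the call was lost without propranolol replicate 2. Zfp592 and Zfp687, partners of ZMYND8, Zfp746, a repressor of Ppargc1a, and Zfp516, a co-activator of brown fat genes, reached log2 fold changes of 0.39 to 0.53, with edgeR adjusted p between 0.00428 and 0.021, all under 1.5-fold. Zfp687 and Zfp746 were called higher without vehicle replicate 1 (0.67 and 0.64) and without propranolol replicate 1 (0.65 and 0.69), and with no filter on low counts (0.59 and 0.61). Zfp148, a factor that binds GC boxes, had a log2 fold change of -0.44 ± 0.11 that turned to 0.44 after the removal of the GC trend. Zfp143, Zfp217, Zfp384 and Zfp609 were not called, with log2 fold changes between 0.11 and 0.36.

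Zfp593, a factor of large ribosomal subunit assembly, had the highest log2 fold change of all the members, 1.13 ± 0.46, at 0.976 ± 0.141 against 2.13 ± 0.605 CPM (SD, n = 2) and an adjusted p of 0.0746 in edgeR. It shares 77.9% of its exon bases with a neighbouring gene. Zfp622, also of ribosome maturation, Zfp106, Zfp346, Zfp830 and Zfp326, all of RNA binding or splicing, and the spindle factor Zfp207 were not called, with log2 fold changes between -0.37 and 0.33. Zfp830 was called lower, at -0.72, without propranolol replicate 1.

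**Figure D2:**
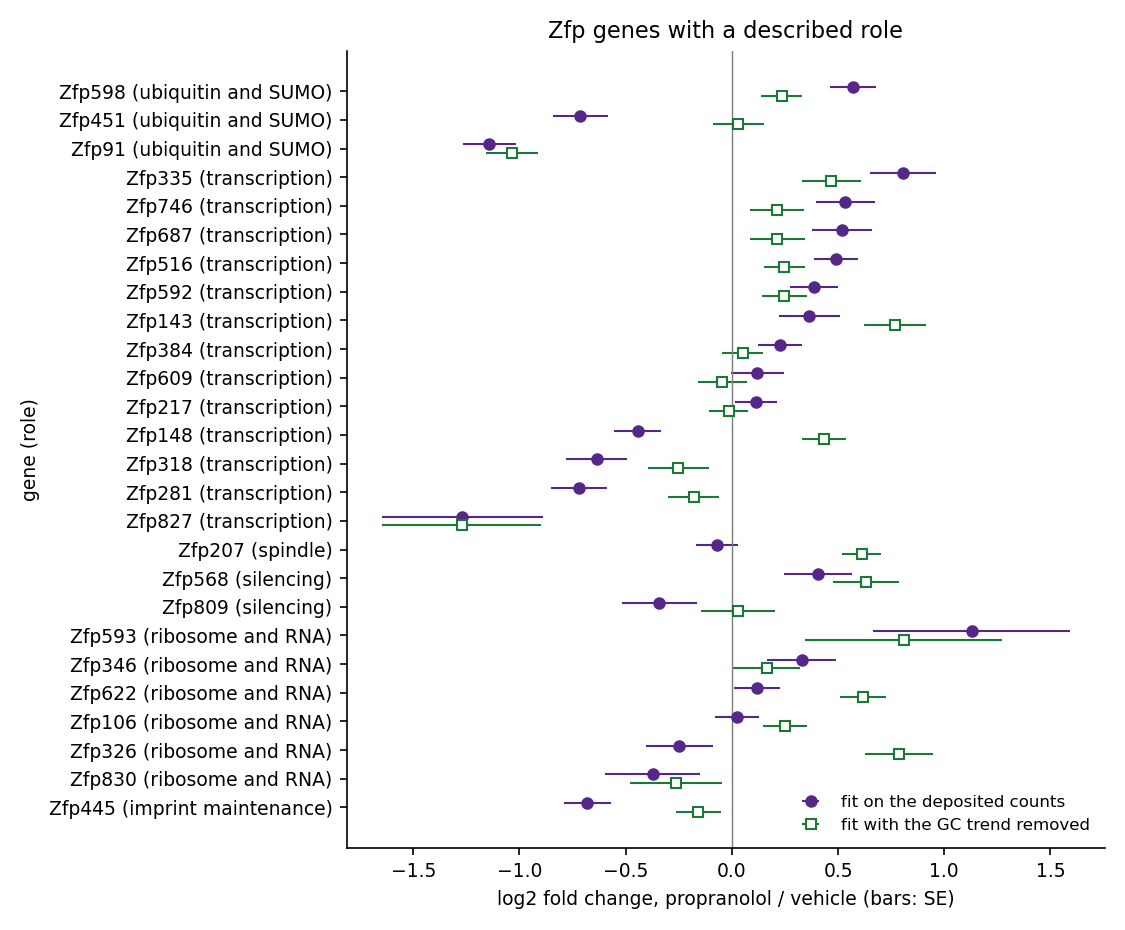
Log2 fold change, propranolol over vehicle, of the 26 Zfp genes with a described role, with SE bars, from the fit on the deposited counts (filled circles) and from the fit with the GC trend removed (open squares). Zfp91 and Zfp827 keep nearly the same value in both fits, while Zfp451 moves from -0.71 to 0.03.

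The GC content of the longest transcript ranged from 33.2% to 68.7% among the Zfp genes, and their fold changes followed it. The Zfp genes had a median GC content of 44.7%, against 49.6% over all tested genes. Of the 185 Zfp genes at or below that tested median, 73 were lower and 1 was higher, with a median log2 fold change of -0.59 (39.5% lower). Over all tested genes in that range, 26.9% were lower and the median was -0.39. Of the 84 Zfp genes above it, 2 were lower (Zfp683 and Zfp827) and 15 were higher (17.9%), with a median of 0.34, beside 22.0% higher and a median of 0.33 over all tested genes in that range. The rank correlation of log2 fold change with GC content was 0.817 across the 269 genes, which share the same 4 libraries, and 0.577 across 14681 tested genes.

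All genes were then divided by GC content into 10 groups holding about equal numbers. The lowest of these, from 30.8% to 41.2% GC, held 85 Zfp genes, or 31.6% of them. Of these 85 genes, 55 were lower (64.7%) and 0 higher, with a median log2 fold change of -1.11. The 1384 other genes of the same GC range were lower in 60.0% of cases, with a median of -0.93. In the next group, the 40 Zfp genes had a median of -0.59 and the other genes one of -0.58. In the highest group, from 57.7% GC upward, 8 of 27 Zfp genes were higher and 1 was lower, and the medians were 0.43 for Zfp genes and 0.46 for the others. The widest gap between the medians of Zfp genes and of other genes was that of the group from 47.7% to 49.6% GC, with 21 Zfp genes, where they were -0.22 and -0.01. The plot of fold change against GC content shows the medians of the other genes as lines.

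**Figure D3:**
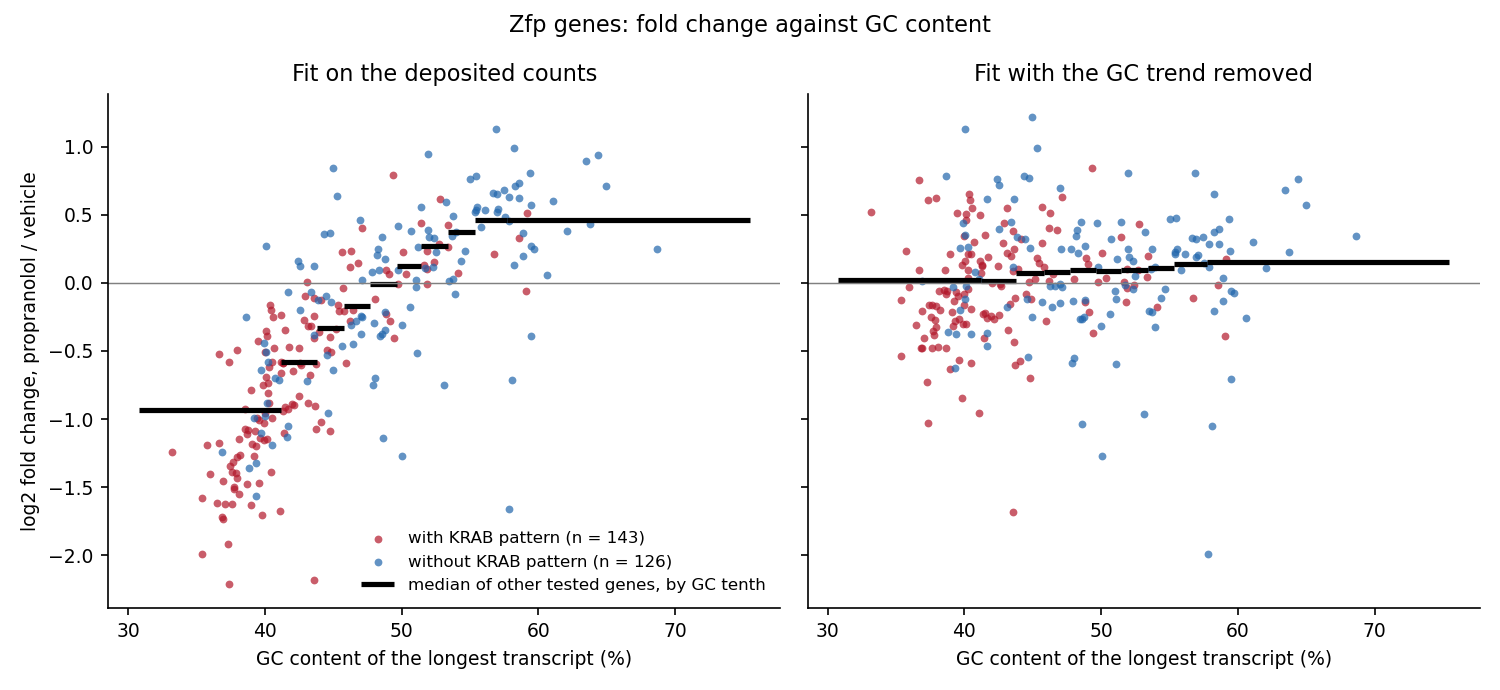
Log2 fold change of the 269 Zfp genes (vertical axis) against the GC content of the longest transcript in percent (horizontal axis), with KRAB genes in red, other Zfp genes in blue, and black lines for the median of all other tested genes in each of 10 groups by GC content. On the deposited counts (left) the points rise with the black lines from about 35% to 60% GC. With the GC trend removed (right) the Zfp genes have a median of 0.03.

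The libraries of each group moved together with GC content. In the lowest GC group, the median Zfp gene deviated from its mean over the 4 libraries, on the scale of log2(CPM + 0.5), by 0.49 and 0.45 in vehicle replicates 1 and 2 and by -0.34 and -0.61 in propranolol replicates 1 and 2. In the highest group the values were -0.20 and -0.22 in vehicle and 0.16 and 0.33 in propranolol. All tested genes gave 0.43, 0.39, -0.35 and -0.47 in the lowest group. The steepest relation was that of propranolol replicate 2, and the vehicle replicates were close to each other. A difference in the preparation of the libraries and an effect of the treatment cannot be told apart here, since each library belongs to only 1 group.

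**Figure D4:**
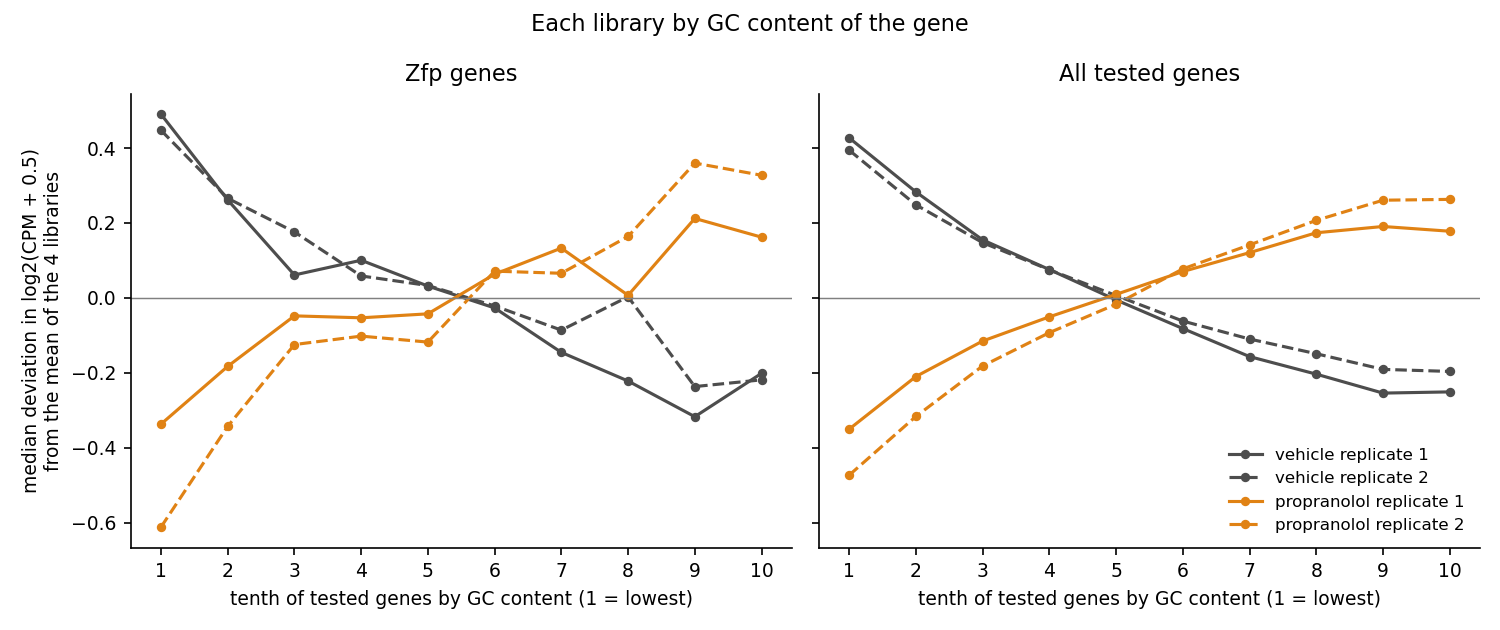
Median deviation of each library in log2(CPM + 0.5) from the mean of the 4 libraries (vertical axis) in 10 groups of tested genes by GC content (horizontal axis, 1 the lowest), for Zfp genes (left) and all tested genes (right). Vehicle libraries (grey) fall and propranolol libraries (orange) rise along the axis, from 0.49, 0.45, -0.34 and -0.61 to -0.20, -0.22, 0.16 and 0.33 for the Zfp genes.

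The composition of the finger sequences ran in the same order. Over all matched fingers of a gene, the median GC content was 39.8% in the 75 lower genes, 59.4% in the 16 higher genes and 50.7% in the 178 others. At the last codon position it was 32.6%, 73.9% and 59.9%. The 3' untranslated part of the transcript had a median GC content of 36.8% in the lower and 52.6% in the higher genes, and a median length of 1733 and 683 bases. Across genes, the rank correlation with log2 fold change was 0.809 for the coding sequence, 0.794 for the fingers, 0.703 for the 3' untranslated part and 0.377 for the 5' untranslated part, and -0.221 for the length of the 3' part. These parts belong to the same transcripts, so the values are not independent of each other.

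When each library's dependence on GC content was taken out through offsets before the same edgeR test, 5 Zfp genes were lower and 14 higher, with a median log2 fold change of 0.03. Of all tested genes, 4.99% were then lower and 7.64% higher. The correction raised the median of all tested genes by 0.11, to 0.09, so that the Zfp genes lay 0.05 below that median after it and 0.30 below it before. Without the correction, the median of the Zfp genes minus that of all genes was -0.17 with DESeq2, -0.16 with no filter on low counts and -0.17 without propranolol replicate 2. The rank correlation of fold change with GC content was 0.216 across the Zfp genes and 0.0528 across all tested genes after the correction. Of the 75 lower genes, 5 were also lower after the correction and 10 took a positive sign. Of the 70 that were no longer called, 6 stayed beyond 1.5-fold, at -1.68 for Zfp9 (adjusted p 0.052 in edgeR), -0.95 for Zfp617, -0.84 for Zfp983, -0.73 for Zfp712, -0.63 for Zfp182 and -0.60 for Zfp113. Of the 16 higher genes, 4 were also higher and 0 took a negative sign.

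The 5 Zfp genes lower in both fits were Zfp942, Zfp683, Zfp800, Zfp827 and Zfp91. Their corrected log2 fold changes were -1.03 for Zfp942, -1.99 for Zfp683, -0.62 for Zfp800, -1.27 for Zfp827 and -1.04 for Zfp91, with adjusted p from 0.000764 to 0.0365 in edgeR. Zfp800 had 27.0 and 22.0 CPM in vehicle and 8.99 and 7.33 CPM in propranolol. The 4 genes higher in both fits were Zfp276, Zfp523, Zfp628 and Zfp672, with corrected values of 0.65, 0.80, 0.68 and 0.99. Among the 10 genes called higher only after the correction, Zfp330 had 1.13 (adjusted p 0.000478 in edgeR) against 0.27 on the deposited counts, at 26.2 and 27.2 CPM in vehicle and 33.1 and 31.3 CPM in propranolol. Zfp207 and Zfp326 were also among them, with 0.61 and 0.79 after and -0.07 and -0.25 before the correction, a change of sign. The 10 genes had GC contents of the longest transcript between 38.6% and 47.1%. Zfp143, Zfp568 and Zfp622 of the genes with known roles were also among them. In the transcript with the longest coding sequence, GC content was 50.7% in Zfp568, 51.2% in Zfp622 and 47.8% in Zfp207. There it was 44.8% in Zfp143, 45.4% in Zfp330 and 43.5% in Zfp326. How far the corrected values depend on the transcript chosen was not tested.

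KRAB genes made up 56 of the 75 lower genes and 0 of the 16 higher genes. Of the 143 Zfp genes with a KRAB match, 39.2% were lower and the median was -0.59. Of the 126 without, 19 were lower (15.1%) and 16 higher (12.7%), with a median of 0.12. The shares over all tested genes were 15.6% and 12.2%, near those of the genes without KRAB. The classes differed in GC content, at 41.4% and 50.02%, and in level, at 4.64 and 18.9 CPM, all as medians. The 18 KRAB genes above the tested median of GC content had 0 lower calls, 0 higher calls and a median of 0.22. The 125 at or below it had 56 lower calls (44.8%) and a median of -0.79. The 60 genes without KRAB at or below that GC content had 17 lower calls (28.3%), 1 higher call and a median of -0.36. The 66 above it had 2 lower calls, 15 higher calls (22.7%) and a median of 0.38. Of all tested genes, 26.9% were lower at or below that GC content, and 22.0% were higher above it. After the GC correction, the medians were -0.01 for KRAB genes and 0.13 for the others, with 1 lower and 2 higher KRAB genes and 4 lower and 12 higher others. Within each class, fold change followed GC content, with rank correlations of 0.835 and 0.665.

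By number of matched fingers, the 55 genes with 1 to 6 matches had 13 lower and 4 higher calls and a median of -0.07. The 123 genes with 7 to 12 fingers had 35 and 5 calls and a median of -0.31, and the 82 genes with 13 or more had 27 and 7 calls and a median of -0.52. The median GC content of these groups was 48.0%, 45.0% and 41.9%. Their lower shares were 23.6%, 28.5% and 32.9% and their higher shares 7.27%, 4.07% and 8.54%, beside 15.6% and 12.2% of all tested genes. After the GC correction their medians were 0.14, -0.01 and 0.02, with 3, 2 and 0 lower and 8, 3 and 2 higher calls. None of the 9 genes without a finger match was called, and their median was 0.16.

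The Zfp genes lay on 20 chromosomes, with 69 on chromosome 7, 36 on chromosome 17 and 20 each on chromosomes 13 and 8. On chromosome 17, 22 of 36 were lower and 1 higher, and on chromosome 13, 11 of 20 were lower and 0 higher. On chromosome 7, the largest group, 7 were lower and 6 higher. The medians were -1.05, -1.05 and 0.11, beside median GC contents of 39.5%, 39.9% and 48.3%. The lower shares were 61.1%, 55% and 10.1% and the higher shares 2.78%, 0% and 8.70%, beside 15.6% and 12.2% of all tested genes. After the GC correction the medians were -0.16, -0.28 and 0.19, with 1, 0 and 0 lower and 1, 0 and 4 higher calls.

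Clusters were defined as at least 4 Zfp genes with starts at most 500 kb from the next. The 14 clusters held 115 genes, of which 40 were lower (34.8%) and 4 higher (3.48%), with a median log2 fold change of -0.43. The 154 genes outside clusters had 35 lower (22.7%) and 12 higher (7.79%) calls and a median of -0.25. The shares over all tested genes were 15.6% lower and 12.2% higher. At or below the tested median of GC content, 40 of 83 clustered genes (48.2%) and 33 of 102 genes outside (32.4%) were lower. Of all tested genes in that GC range, 26.9% were lower. For the clustered genes and those outside in that range, the following values are given in this order. Their medians were -0.90 and -0.50, with median GC contents of 40.7% and 42.6%. After the GC correction those medians were -0.08 and 0.05, with 1 and 2 lower and 2 and 9 higher calls.

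The largest cluster, at chr17:21008903-23599487, held 21 Zfp genes, 20 of them with KRAB. Of these, 15 were lower and 0 higher, both propranolol libraries were below both vehicle libraries in 18, and log2 fold changes ran from -2.21 in Zfp942 to 0.27, with a median of -1.26. The median GC content of this cluster was 38.5% and its lower share 71.4%. Of all tested genes, 15.6% were lower, and both propranolol libraries lay below both vehicle libraries in 36.9%. In the group of all tested genes from 30.8% to 41.2% GC, 60.2% were lower. The cluster at chr13:67038596-67755228 held 12 genes, all with KRAB, of which 8 were lower and all 12 had propranolol libraries below the vehicle libraries, with a median of -1.28 and a GC content of 39.0%. Further clusters with low GC content were that at chr17:32765496-33631779 (10 genes, 5 lower, median -0.86), that at chr9:20345136-20605409 (5 genes, 3 lower, median -0.75) and that at chr8:71882019-71993792 (4 genes, 3 lower, median -1.13).

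The clusters of higher GC content had mostly positive fold changes. At chr7:4915217-5053723, 5 genes without KRAB and with a median GC content of 63.5%, Zfp628 among them, had log2 fold changes from 0.37 to 0.89, and 2 were called higher. Both propranolol libraries lay above both vehicle libraries in all 5, as they did in 35.8% of all tested genes. Of all tested genes 12.2% were higher, and of those from 57.7% GC upward 32.8%. At chr6:47835661-48623227, 8 genes with a GC content of 55.8% had a median of 0.48 and 1 higher call, and at chr7:127233061-127885996, 10 genes with 53.3% had a median of 0.25 and 1 higher call, with 10 positive fold changes. Chromosome 7 also held clusters of low GC content. In that at chr7:27731389-28014115 (GC content 40.1%) all 5 genes had negative fold changes, 2 of them called, and the median was -0.69.

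Across the 14 clusters, the rank correlation of median log2 fold change with median GC content was 0.943 on the deposited counts and 0.644 after the GC correction. The number of clusters with a negative median was 9 before and 4 after the correction. In the clusters on chromosomes 17 and 13 the corrected medians were -0.17 for the largest and -0.34 for the 12 genes on chromosome 13, with 1 and 0 lower calls. The 39 other protein-coding genes without KRAB that overlap the cluster spans had 3 lower and 9 higher calls and a median log2 fold change of 0.25, at a median GC content of 54.6%. Only 3 of these 39 lay at or below the tested median of GC content. The 23 other KRAB genes within the cluster spans, at a median GC content of 41.9%, had 4 lower and 0 higher calls and a median of -0.82. The 7 of them in the chromosome 13 cluster held the 4 lower calls, with a median of -1.19. The 2 in the largest cluster had 0 calls and a median of -1.70. After the GC correction, the 23 other KRAB genes had 0 lower and 0 higher calls and a median of -0.19. The 39 genes without KRAB then had 2 lower and 3 higher calls and a median of 0.05.

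**Figure D5:**
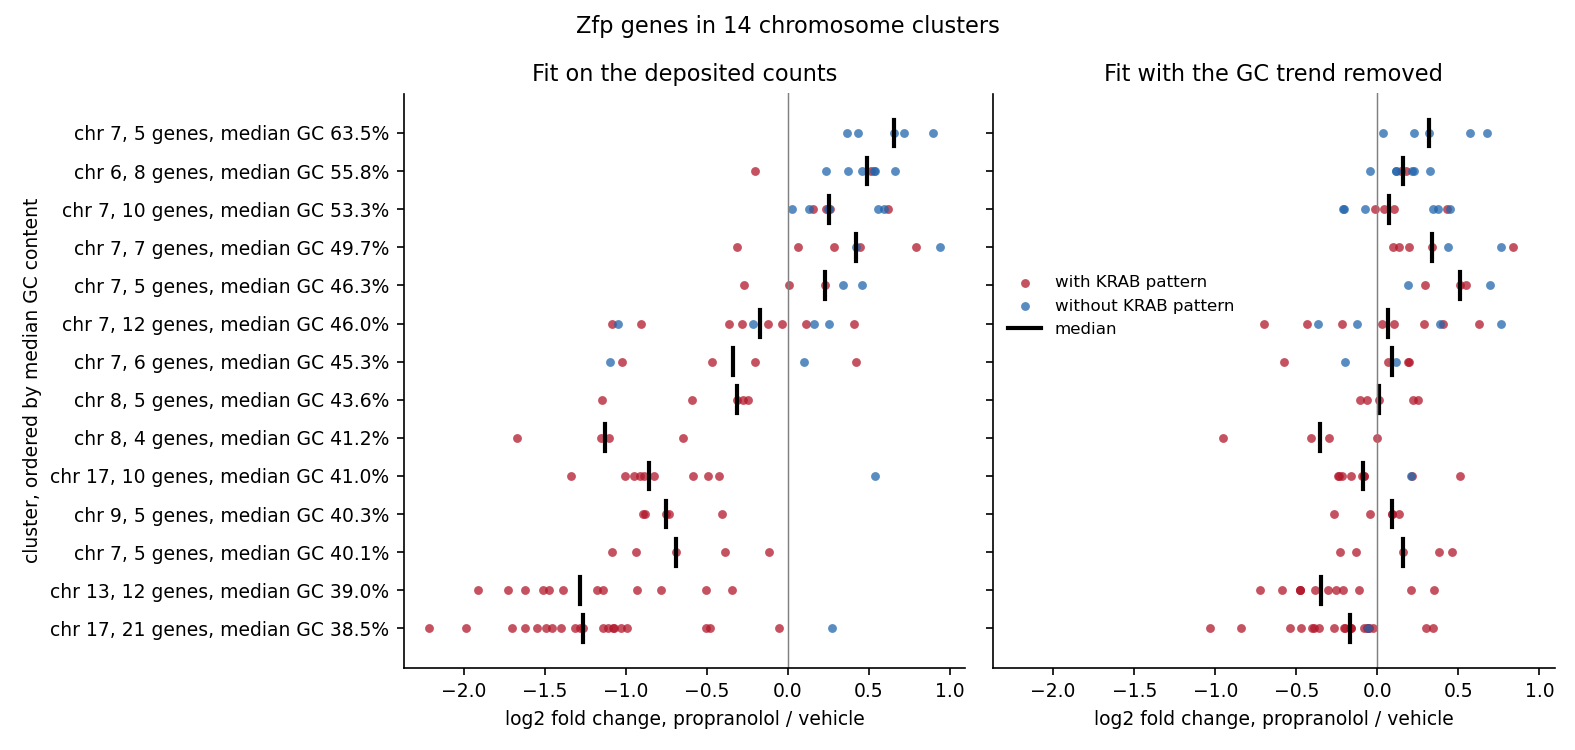
Log2 fold change of the 115 Zfp genes in the 14 clusters (horizontal axis), with a row for each cluster in order of median GC content and black bars for medians. KRAB genes are red and the others blue. On the deposited counts (left) the medians go from -1.26 in the lowest row to 0.65 in the uppermost, and with the GC trend removed (right) they lie between -0.35 and 0.51.

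Relatives of these genes gave the following values in the same fit. Tested Zfp genes with letters after the number had 9 lower (39.1%) and 0 higher calls of 23, beside 15.6% and 12.2% of all tested genes, a median of -0.91 and a GC content of 41.7%. The 80 other tested genes with a KRAB match had 21 lower (26.25%) and 0 higher calls and a median of -0.84. After the GC correction, the Zfp genes with letters and these 80 genes had 0 lower and 0 higher calls. Their medians were then -0.05 and -0.08. The Zbtb genes, which pair fingers with a BTB domain, had 8 lower (23.5%) and 7 higher (20.6%) calls of 34 and a median of 0.06. Zscan and Zkscan genes had 1 lower call of 18 (5.56%), Klf genes 2 of 12 (16.7%) and Zc3h genes, with a different kind of finger, 2 of 19 (10.53%), each with 0 higher calls and medians between -0.08 and 0.03. The median GC contents of these 4 families were 48.8%, 49.4%, 47.7% and 45.7%.

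Of 33 listed co-repressor genes, which include the partners of KRAB proteins, 32 were matched and tested, 5 were lower (15.6%) and 3 were higher (9.38%), beside 15.6% and 12.2% of all tested genes, with a median of 0.07. Trim28, the scaffold that KRAB domains bind, had 195 and 203 CPM in vehicle and 346 and 317 CPM in propranolol (0.74 ± 0.10, adjusted p 0.000374 in edgeR), and 0.41 after the GC correction. Setdb1, its methyltransferase partner, was not called (0.30 ± 0.13). Mbd3, a subunit of NuRD, and Uhrf1, which guides maintenance of DNA methylation, rose by 0.98 ± 0.10 and 0.88 ± 0.10. Atrx, a chromatin remodeler at heterochromatin, had 148 and 143 CPM in vehicle and 62.5 and 62.9 CPM in propranolol (-1.21 ± 0.10, adjusted p 0.000103 in edgeR).

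Cbx3, which encodes an HP1 protein, had a log2 fold change of -0.995 ± 0.189 on the deposited counts and 0.03 after the GC correction. The remodeler Smarcad1 (-0.90 ± 0.13) and the TRIM28 relatives Trim24 (-0.63 ± 0.14) and Trim33 (-0.60 ± 0.12) completed the lower genes. After the correction 0 genes of the list were lower and 3 higher. These were Mbd3, Uhrf1 and Morc3, an ATPase of the MORC family (0.60, adjusted p 0.00469 in edgeR), while Trim28 was no longer called (0.41). Trim24 had nearly the same value as before, -0.56 (adjusted p 0.0139 in edgeR), just short of 1.5-fold. The corrected values were -0.29 for Atrx, -0.16 for Smarcad1 and -0.12 for Trim33.

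Marker genes of macrophages and of other cell types were measured in the same libraries. The summed level of 12 macrophage markers was 23383 and 22389 CPM in vehicle and 29398 and 26653 CPM in propranolol, with Lyz2 the most abundant and 2 of 12 higher. Beside the T cell markers given with Zfp683, the 9 NK cell markers summed to 287 and 297 CPM against 124 and 65.8 CPM, with 9 of 9 lower and Gzmb the most abundant. The 11 markers of fibroblasts and fibrosarcoma summed to 3588 and 1369 CPM in vehicle and 774 and 816 CPM in propranolol. Of these, 10 of 11 were lower, and Col3a1 was the most abundant. The shares over all tested genes were 15.6% lower and 12.2% higher. After the GC correction, 11 of 12 T cell, 7 of 9 NK cell and 10 of 11 fibroblast and fibrosarcoma markers were lower. Of the 12 macrophage markers, 1 was then higher and 0 lower.

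The 6 tested of 9 neutrophil markers summed, with the untested ones, to 177 and 195 CPM against 350.0 and 377 CPM, with 5 higher and Csf3r the most abundant. The 7 B cell markers summed to 161 and 186 CPM against 188 and 216 CPM, with 1 lower and 2 higher of 4 tested and Ighm the most abundant. The 8 endothelial markers summed to 51.9 and 48.5 CPM against 64.4 and 64.4 CPM, with 1 higher of 6 tested and Pecam1 the most abundant. No listed marker was at 0 in all libraries of either group. After the GC correction, 5 neutrophil, 1 B cell and 0 endothelial markers were higher, and 0 of these 3 lists were lower. The part of other cells in the levels of the Zfp genes was not tested.

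Counting could blur some of these genes. Of the 269 genes, 84 share exon bases with another gene, 13 of them over 20% of their exon bases, and in 35 genes at least 10% of the 50-base stretches of the transcript also occur in another gene. These 35 genes had 14 lower calls (40%), 2 higher calls and a median of -0.93. The other 234 had 61 lower and 14 higher calls and a median of -0.28. The median GC contents of the 35 and the 234 genes were 40.1% and 45.2%. After the GC correction they had 0 and 5 lower calls, 1 and 13 higher calls and medians of 0.01 and 0.04. The 84 genes that share exon bases had 20 lower calls, 11 of the 16 higher calls and a median of -0.12. The 185 with no shared exon bases had 55 lower and 5 higher calls and a median of -0.38. The median GC contents of the 84 and the 185 genes were 47.0% and 43.6%. After the GC correction they had 3 and 2 lower calls, 6 and 8 higher calls and medians of 0.10 and 0.004.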

How the data were processed

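The authors aligned reads of poly-adenylated RNA from sorted TAMs to mm10, kept alignments of high mapping quality and deposited raw counts of fragments per gene. The submitters' processing notes name STAR 2.7.1a, SAMtools 1.9, featureCounts 1.6.4 and DESeq2 1.39.0, and the strand option and annotation release are not given in the sources used here. Columns of all 4 libraries were used, matched by the number in the labels. Of 54146 genes, 54079 were matched by identifier to GENCODE M21 (GRCm38), which gave symbols, positions, GC content of the longest transcript, exon length for TPM, and coding sequences searched for C2H2 fingers and for the KRAB A box. The KRAB pattern matched 332 protein-coding genes, 22 of them without a finger match.

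Counts were tested with edgeR 4.0.16 in R 4.3.3 (TMM, filterByExpr at a minimum count of 10, quasi-likelihood F test, all 4 libraries, no covariates), with Benjamini-Hochberg adjustment over 14688 genes. Calls needed an adjusted p under 0.05 and over 1.5-fold. TMM factors were 1.08 and 1.09 for vehicle and 0.914 and 0.931 for propranolol. For the GC correction, the deviation of every library from the gene mean (log2 CPM) was fitted on GC content by a natural spline (5 degrees of freedom), and the fitted values served as offsets. Replicates differed beyond sampling noise (chi-square per degree of freedom 7.56 in vehicle and 9.83 in propranolol). The steps were tested on simulated counts. Other scalings, filters, thresholds and DESeq2 1.42.0 served as alternatives. Depth sets the precision of low genes.

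The members and lists were chosen with earlier results of these data known, so their counts and medians are descriptions without a list test. Genes named are the 10 lowest and 10 highest called members with at least 1 CPM, the 8 most abundant by TPM, members with a known role, those next to the count limit and the called co-repressor genes. Others (Zfp800, Zfp330, Zfp672 and Zfp113) were chosen after their values were seen, as were Setdb1 and the marker genes named by abundance.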

Additional observations from a re-analysis of the deposited data

How the results depend on the processing

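Main values were 75 lower and 16 higher Zfp genes, a median of -0.32 and 4084 changed genes in all. The GC correction gave 5 lower Zfp genes, a median of 0.034 and 1855 changed genes, 4 changed genes in clusters (44 before), 14 at low GC content (74 before), 3 co-repressors (8 before) and 6 of the other families (29 before). With the replicate block added to it, the values were 7, 0.034 and 2128. Among the named genes called in either fit, Zfp451, Zfp207 and Zfp326 changed sign to 0.031, 0.61 and 0.79, and to 0.040, 0.61 and 0.79 with the replicate block. Of 50 named members, the correction ended 20 calls, added 5 and changed the sign of 11, these 3 and Zfp148, Zfp706, Zfp395, Zfp740, Zfp217, Zfp703, Zfp809 and Zfp609. Upper-quartile factors gave 8 higher Zfp genes and no filter on low counts gave 26. Without a fold threshold 33 were higher and 6204 genes changed, and above a log2 fold change of 1.5 the values were 17 lower, 0 higher and 728 changed. Genes of at least 500 counts gave 39 lower and a median of 0.016. With each library left out, 48 to 74 were lower, 10 to 25 higher and the median ran from -0.38 to -0.22. The cause of these differences was not tested. DESeq2, DESeq2 size factors in edgeR, the stricter filter and neighbours up to 1 Mb apart left the counts within 1.5 times, though the DESeq2 median over all genes was 0.11 lower. The replicate block alone gave 78 lower and 16 higher Zfp genes and 4362 changed genes. Same-numbered libraries correlated at 0.169 in their deviations, with only 2 pairs, and no label ties them, so they share only a number. Low depth limits the genes near 100 counts.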
